A study of Danio rerio with 3 samples.

Results

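The genes described here are the keratins and claudins of zebrafish epithelia, with the cell adhesion genes epcam and cdh1. They were taken by symbol from the platform's probe table: 20 genes whose symbol starts with krt and a digit, 37 whose symbol starts with cldn (cldn5b was left out), epcam and cdh1, 59 of the 14462 genes in that table. The enveloping layer keratin genes cyt1 and cyt1l belong to the same definition, but no probe in the table carries either symbol. Keratins are the intermediate filament proteins of epithelial cells. A type I and a type II keratin pair to build each filament, which is anchored at desmosomes and gives the cell sheet its mechanical strength. Claudins are membrane proteins of the tight junction, and the claudins a cell makes set which ions and solutes pass between cells. In a zebrafish embryo the main epithelium is the skin, made of the outer periderm and the basal keratinocytes, which also forms the barrier to the water.

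The samples were 3 replicates of whole zebrafish embryos on 2-colour arrays, each setting embryos exposed to Aroclor 1254, a commercial mixture of polychlorinated biphenyls, against control embryos in medium. Exposure at 71.9 mg/L began at 24 hpf (hours post fertilization) and lasted 24 h, and both kinds of embryo were 48 hpf old at collection and kept at 28.5 °C. The strain, the number of embryos pooled and the origin of the replicates are not given in the labels. The p-values rest only on the spread between these 3 samples, which may be technical. For each gene they combine its own spread with that of all genes. Each deposited value was a log ratio of both channels, taken as log2, and the labels do not say which condition was the numerator. "Positive" and "negative" therefore describe the sign in the deposited table, and no direction of exposure is given. A ratio of whole embryos cannot tell fewer cells of a type from less RNA per cell, and it gives no level, so genes were not ranked by abundance.

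Values were present for 45.4% of the 21060 probes with a gene, and 5904 genes had one in all 3 samples. The gene cyp1a, a cytochrome P450 induced through the aryl hydrocarbon receptor, gives the scale of the strongest ratio: 7.07, 8.61 and 8.02 in replicates 1, 2 and 3. Among marker lists, values were present for 17 of 18 skeletal muscle probes and 17 of 22 neural probes. They were present for 6 of 13 endothelial, 6 of 10 hatching gland, and 17 of 28 ionocyte and mucous probes. The rule behind missing values is not known, so these counts cannot check the tissue label. Gene names rest on a match of table rows to probes that was inferred from the values of these samples.

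Keratins were measured more completely than claudins. Values were present for 24 of 30 keratin probes (80.0%) and for 21 of 52 claudin probes (40.4%). All 3 samples had a value for 15 of the 20 keratins and 15 of the 37 claudins, as well as for epcam and cdh1, which makes 32 members. The keratins krt1-c5, krt18a.2, krt93, krt95 and krt98 had no value. Neither had 19 claudins, among them cldn15la and cldn15lb, relatives of the claudin of gut epithelium, cldnk, a myelin claudin in zebrafish, and cldnf, cldng and cldnj. The remaining 3 claudins were measured in part: cldn7a read 1.19 in replicate 1 and 2.27 in replicate 3, cldna read 0.96 in replicate 1, and cldn30 read 0.53 in replicate 2. These few values were all positive. Of the 5904 genes with a value in all 3 samples, 49.4%, 48.8% and 45.7% were positive in replicates 1, 2 and 3. Genes measured in part, like these claudins, are not in those shares.

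The first question was which of these genes differed between exposed and control embryos. In limma over all 5904 genes, none of the 32 members passed an adjusted p of 0.05, where 1 gene of all those tested (0.0169%) did. At an unadjusted p of 0.05, 7 members were positive and 2 negative, against 7.67% and 8.43% of all genes. That count moved with the replicates: it was 3 and 1 without replicate 1 (5.05% and 5.2% of all genes), 5 and 4 without replicate 2 (7.76% and 9.65%), and 9 and 1 without replicate 3 (6.01% and 6.20%). With all 3 samples, the positive ones were epcam, krt97, krt18a.1, krt99, krt1-19d, cldn12 and cldn3c, and the negative ones krt1-19e and krt5. A ratio of 1.5-fold or more with 1 sign in all 3 samples was found for epcam and krt97 on the positive side and for krt1-19e and krt5 on the negative side, against 2.63% and 2.71% of all genes.

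Among keratins, 6 of 15 were positive in all 3 samples and 2 were negative, where the shares over all genes were 19.7% and 23.1%. Their median ratio was 0.61, against -0.03 over all genes. These counts describe genes chosen with earlier results known, and they carry no test of the group.

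**Figure D1:**
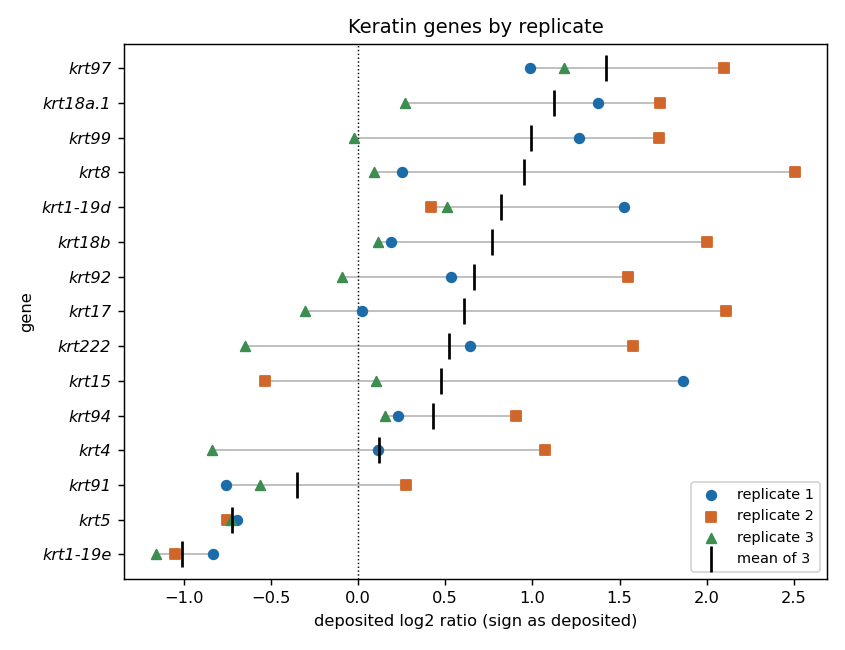
Deposited log2 ratio (horizontal axis) of the 15 keratins with a value in all 3 samples, ordered by mean. Symbols are the replicates, the black tick is their mean and the grey line their range. Replicate 2 lies at the right end for 11 genes, while krt5 and krt1-19e sit left of 0 in every replicate.

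The keratins of simple, single-layered epithelia were positive in every sample. The gene krt8, a type II keratin, read 0.25, 2.51 and 0.09 in replicates 1, 2 and 3 (mean 0.95 ± 1.35, SD, n = 3; adjusted p = 0.373, limma). Its type I partners are the krt18 genes. Of these, krt18b read 0.19, 2.00 and 0.11 (0.77 ± 1.07, SD, n = 3; adjusted p = 0.39, limma). The values of krt8 and krt18b were alike in each sample: high in replicate 2 and near 0 in the other two. For krt18a.1 the ratios were 1.38, 1.73 and 0.27 (1.13 ± 0.76, SD, n = 3; 2.18-fold, adjusted p = 0.219, limma), so that replicate 1 was high as well. Without replicate 2 the means of krt8 and krt18b were 0.17 and 0.15, and that of krt18a.1 was 0.82.

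The largest keratin ratio was that of krt97, at 0.99, 2.1 and 1.18 (1.42 ± 0.59, SD, n = 3; 2.68-fold, 95% confidence interval 0.70 to 2.14 on the log2 scale, adjusted p = 0.163, limma). All 6 values of its 2 rows were positive. One row averaged 1.17 and the other 1.68. Without replicate 2 the mean of krt97 was 1.08, so its size did not come from that replicate alone.

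The 2 keratins negative in all samples were krt1-19e and krt5. Whether they stand for the basal layer of skin was not tested. The epidermal genes tp63 (0.33, 0.60 and -0.26) and itgb4 (-0.17, 0.06 and 0.33) had values of both signs. So had 3376 of the 5904 genes measured in all samples. The gene krt1-19e, also known as krtt1c19e, is a type I keratin whose promoter is used to mark basal keratinocytes in zebrafish. It read -0.83, -1.05 and -1.16 (-1.01 ± 0.17, SD, n = 3; a ratio of 2.02-fold in size, confidence interval -1.58 to -0.44, adjusted p = 0.177, limma). All 9 values of its 3 rows were negative, and the row means ran from -1.19 to -0.71. The gene krt5, a type II keratin of the basal epidermal layer in mouse and human, read -0.69, -0.75 and -0.73 (-0.73 ± 0.03, SD, n = 3; 1.65-fold in size, confidence interval -1.28 to -0.17, adjusted p = 0.23, limma). All 15 values of its 5 rows were negative, from -1.72 to -0.03.

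The close agreement of krt5 between samples belongs to the average of its rows and not to each row. Its row means lay between -1.24 and -0.43, and the SD of a row over the 3 samples between 0.29 and 0.74. Of its 5 rows, 4 share 1 transcript accession, and rows of 1 gene on 1 array are not independent samples. Over all members, 43 rows had a value in all samples, and none passed an adjusted p of 0.05 in limma, against 7 of 10200 rows (0.0686%). At an unadjusted p of 0.05 there were 8 positive and 4 negative member rows, against 9.98% and 8.87% of all rows.

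**Figure D2:**
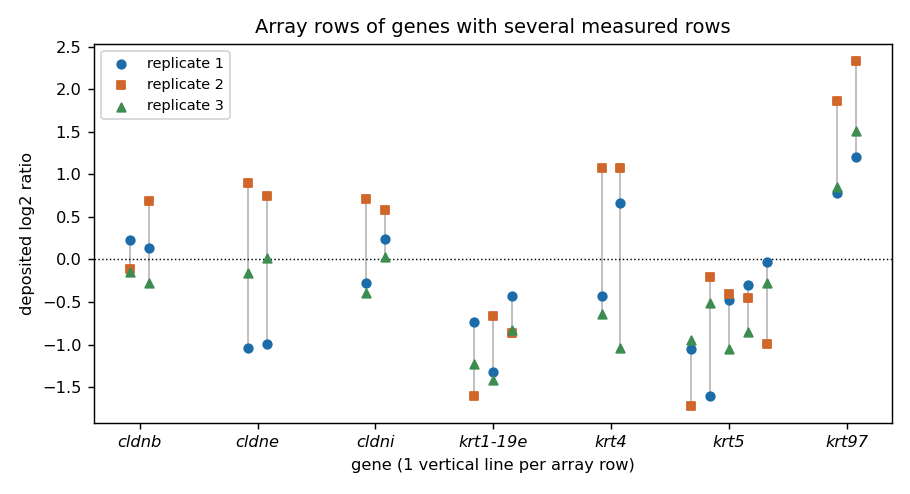
Deposited log2 ratio (vertical axis) of each array row of the 7 members with more than 1 row measured in all samples. Each vertical line is 1 row and the symbols are the replicates. All rows of krt5 and krt1-19e lie below 0 and all of krt97 above it, while both rows of krt4, cldnb and cldne and 1 of the 2 rows of cldni cross 0.

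The type I keratin krt1-19d, the neighbour of krt1-19e, had the opposite sign. It read 1.52, 0.42 and 0.51 (0.82 ± 0.61, SD, n = 3; adjusted p = 0.265, limma). The values of the pair did not overlap, which follows from their signs. One of the 2 krt1-19d rows lacked a value in replicate 2, so the average there rests on the other row, whose own mean was 1.00. Both genes stand in a run of 5 measured keratins in the RefSeq gene table of GRCz12tu, with at most 5 other genes between neighbours. The run also holds krt92 (0.53, 1.55 and -0.09), krt17 (0.03, 2.11 and -0.30) and krt91 (-0.76, 0.28 and -0.57). In each of these 3 genes replicate 2 was the highest and replicate 3 was negative. Neighbouring keratins are related in sequence, and whether their probes share signal was not tested.

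In a further run, krt5 lies near krt8 and krt18a.1. The signs given above place krt5 below 0 and the other genes above 0 in all samples. How often neighbouring genes differ in this way over the array is not given here. The run around krt15 holds krt94 and krt99. The gene krt94 read 0.23, 0.91 and 0.16 (0.43 ± 0.41, SD, n = 3). For krt99 the values were 1.27, 1.72 and -0.02 (0.99 ± 0.91, SD, n = 3; adjusted p = 0.268, limma). The type I keratin krt15 departed from the others, with 1.86, -0.54 and 0.11 (0.48 ± 1.24, SD, n = 3). It was 1 of 3 keratins lowest in replicate 2, together with krt1-19d and krt5.

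The type II keratin krt4, a marker of the outer skin layer in zebrafish, read 0.12, 1.08 and -0.84 (0.12 ± 0.96, SD, n = 3). Its 2 rows agreed at 1.07 and 1.08 in replicate 2 and at -0.64 and -1.04 in replicate 3, but stood at -0.43 and 0.66 in replicate 1. Its mean was -0.04 after scaling the samples to equal spread, -0.03 after quantile normalization and -0.36 without replicate 2, so it has no settled sign. For krt222, a short keratin relative next to krt97, the values were 0.64, 1.58 and -0.65 (0.52 ± 1.12, SD, n = 3). The 3 keratins assigned to type II thus gave 3 patterns: krt5 negative throughout, krt8 positive throughout and krt4 of both signs. Among measured keratins, no type was assigned to krt91, krt92, krt94, krt97, krt99 and krt222.

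The claudin median ratio was 0.24. Positive in all 3 samples were 3 of the 15 claudins and negative 2, against 19.7% and 23.1% of all genes. No claudin reached 1.5-fold with 1 sign in every sample, where 2.63% of all genes did so as positive and 2.71% as negative. The interquartile range of the gene means was 0.04 to 0.44 for claudins and 0.27 to 0.88 for keratins.

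**Figure D3:**
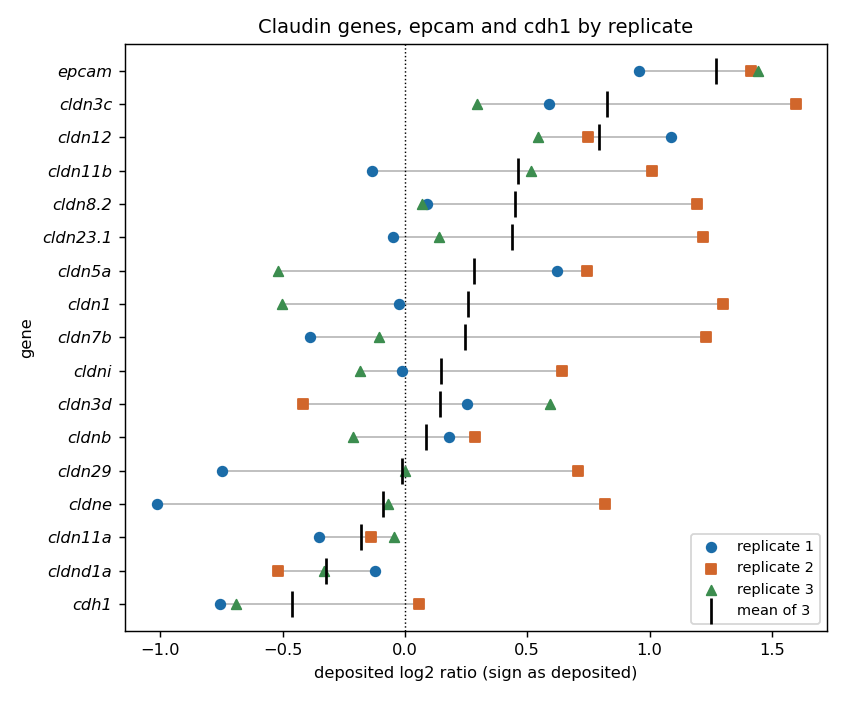
Deposited log2 ratio (horizontal axis) of the 15 claudins with a value in all 3 samples and of epcam and cdh1, ordered by mean. Symbols are the replicates, the black tick is their mean and the grey line their range. The gene epcam stands apart at the top with values from 0.95 to 1.44, and most claudins span 0.

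The claudin with the smallest p was cldn12, whose mammalian counterpart lacks the scaffold-binding end of most claudins. It read 1.09, 0.75 and 0.54 (0.79 ± 0.27, SD, n = 3; 1.73-fold, adjusted p = 0.223, limma), from 1 of its 2 probes. It was 1 of the few claudins not highest in replicate 2. The gene cldn3c, a relative of the barrier-forming claudins 3 and 4 of mammals, read 0.59, 1.60 and 0.30 (0.83 ± 0.68, SD, n = 3; 1.77-fold, adjusted p = 0.28, limma). Without replicate 2 its mean was 0.44. For cldn8.2 the values were 0.09, 1.19 and 0.07 (0.45 ± 0.64, SD, n = 3), which is near 0 in all but replicate 2.

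Negative in all samples were cldn11a and cldnd1a. The gene cldn11a, related to the claudin of myelin and testis in mammals, read -0.35, -0.14 and -0.05 (-0.18 ± 0.16, SD, n = 3). Its duplicate cldn11b read -0.13, 1.01 and 0.52 (0.46 ± 0.57, SD, n = 3). The gene cldnd1a encodes a claudin-domain protein outside the classical claudins and read -0.12, -0.52 and -0.33 (-0.32 ± 0.20, SD, n = 3). Adjusted p in limma lay between 0.453 and 0.726 for these 3 genes.

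Skin and other epithelial claudins mostly straddled 0. For cldn1, a barrier claudin of mammalian skin, the values were -0.02, 1.3 and -0.50 (0.26 ± 0.93, SD, n = 3). The gene cldn7b read -0.39, 1.23 and -0.11 (0.24 ± 0.86, SD, n = 3), and cldn23.1 read -0.05, 1.22 and 0.14 (0.44 ± 0.68, SD, n = 3). In all 3 genes only replicate 2 was clearly above 0. The gene cldne read -1.01, 0.82 and -0.07 (-0.09 ± 0.92, SD, n = 3), and its 2 measured rows gave means of -0.10 and -0.08. The ratios of cldni were -0.01, 0.64 and -0.18 (0.15 ± 0.44, SD, n = 3).

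A run of 7 neighbouring claudins in the RefSeq table holds cldn3c with cldn3d, cldnb and cldn29, which were measured in all samples. Its members did not go together: cldn3d read 0.25, -0.42 and 0.59 (0.14 ± 0.51, SD, n = 3) and was among the 2 claudins lowest in replicate 2. For cldnb, an epithelial claudin of skin and lateral line in zebrafish, the values were 0.18, 0.29 and -0.21 (0.08 ± 0.26, SD, n = 3). Its 2 rows had means of opposite sign, -0.01 and 0.18, both small beside their SD of 0.21 and 0.48. The gene cldn29 read -0.75, 0.71 and 0.001 (-0.01 ± 0.73, SD, n = 3). For cldn5a, which in zebrafish lines the brain ventricle, the values were 0.62, 0.74 and -0.52 (0.28 ± 0.70, SD, n = 3).

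The adhesion genes differed from each other. The gene epcam, which encodes a membrane protein of epithelial cells that joins neighbouring cells, read 0.95, 1.41 and 1.44 (1.27 ± 0.27, SD, n = 3; 2.41-fold, confidence interval 0.68 to 1.87, adjusted p = 0.154, limma). This was the lowest adjusted p among the 32 members, and its means with 1 replicate left out ran from 1.18 to 1.43. The gene cdh1, which encodes E-cadherin of adherens junctions, read -0.76, 0.06 and -0.69 (-0.46 ± 0.45, SD, n = 3; adjusted p = 0.424, limma). The values of epcam and cdh1 did not overlap, although each rests on a single probe. How often the values of a pair of genes do not overlap over the array is not given here.

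The second question was how keratins compared with claudins. In replicate 1 the keratin median was 0.25 and the claudin median -0.02. In replicate 2 these medians were 1.55 and 0.75, and in replicate 3 they were -0.02 and -0.05. The keratin median was therefore the higher one by 0.28, 0.80 and 0.02 in replicates 1, 2 and 3, which is 0.37 ± 0.40 (SD, n = 3). The difference was smaller than the spread between samples. No p-value is given, since the genes were chosen with results known.

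Replicate 2 set much of the level of both families. It gave the highest of the 3 values for 11 of 15 keratins and 11 of 15 claudins, against 39% of all genes. Without it, the median over genes was 0.17 for keratins and -0.02 for claudins. The median over all genes was near 0 in each replicate, at -0.01, -0.03 and -0.05. The median SD over the 3 samples was 0.83 for keratins and 0.64 for claudins, against 0.44 for all genes. Replicate 2 also departed most over the whole array, where 37.4% of all genes were lowest in it. The limma array weights, lower for an array further from the fit, were 0.993, 0.468 and 2.15 in replicates 1, 2 and 3.

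**Figure D4:**
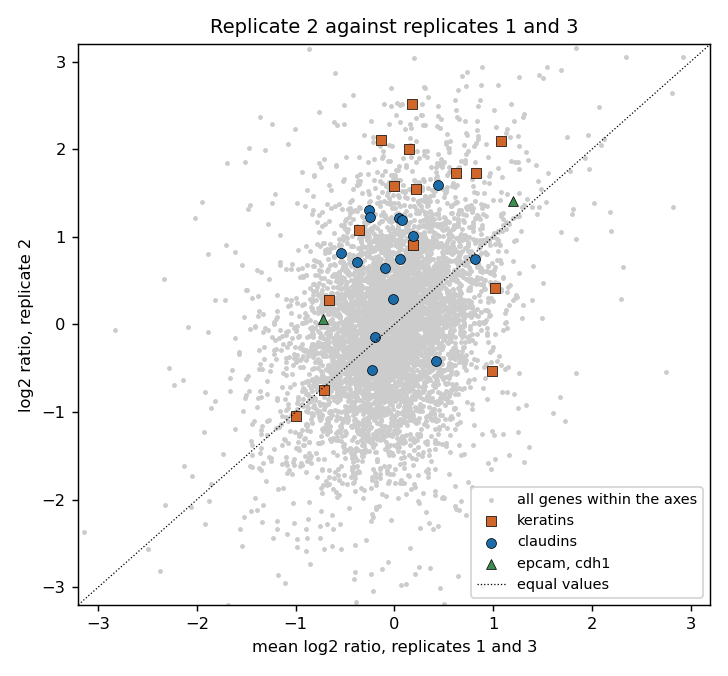
Log2 ratio in replicate 2 (vertical axis) against the mean log2 ratio of replicates 1 and 3 (horizontal axis). Grey points are all genes within the axes, coloured symbols the 32 members, and the dotted line marks equal values. Most keratins and claudins lie above the line, while krt5 and krt1-19e lie close to it below 0.

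Other genes of cell junctions and skin were read from lists chosen with earlier results of these data known. Of 7 measured tight junction genes outside the claudins, 4 had positive values throughout and none had only negative ones, against 19.7% and 23.1% of all genes, with medians of 0.35, 1.36 and 0.22 in replicates 1, 2 and 3. None passed over all genes, and 2, both positive, had an unadjusted p below 0.05 (7.67% of all genes). These were marveld2a, or tricellulin, which seals the corners where several cells meet (0.55, 1.78 and 1.96), and the junctional adhesion molecule jam3b (0.97, 2.1 and 0.16). The occludin gene oclna read 0.35, 1.29 and 0.37, and f11r.1, a further junctional adhesion molecule, 0.41, 0.60 and 0.54. All but 1 of the 7 genes were highest in replicate 2, against 39% of all genes.

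Periderm and epidermis genes had medians of -0.01, 0.91 and 0.14. Of 16 genes, 5 had positive values throughout and 3 negative ones, against 19.7% and 23.1% of all genes, and 13 were highest in replicate 2, against 39%. None passed over all genes, and 4 positive and 1 negative had an unadjusted p below 0.05 (7.67% and 8.43% of all genes). The 4 with the smallest p were scel (1.46, 2.50 and 0.23), encoding sciellin of the cornified envelope in mammals, icn (1.35, 1.41 and 0.28), tspan36 (0.63, 1.13 and 0.58) and agr2 (-2.20, -0.32 and -0.95). The gene tspan36 is also known from pigment cells, and agr2 from mucous cells.

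As a list, desmosome and adherens junction genes did not share the high median of replicate 2. The list is not confined to epithelial genes, since it holds cdh2 of neural tissue. The part of its makeup in this median was not tested. Positive in that replicate were 3 of the 8 measured genes, namely cdh17 (0.57), ctnna1 (0.28) and dspa (0.17). Over the 8 genes the medians were -0.05, -0.45 and -0.36. None was positive in all samples, against 19.7% of all genes. Only ctnnb2, a beta-catenin, was negative in all (-0.86, -0.48 and -0.46), where 23.1% of all genes were. It alone had an unadjusted limma p below 0.05, where 8.43% of all genes were negative and 7.67% positive at that p. None of the 8 passed over all genes. The cadherin cdh2 of neural tissue read 0.18, -0.99 and -0.55, the catenin ctnna2 0.25, -0.74 and -0.26, and jupa, the plakoglobin gene, -0.26, -0.50 and 0.13.

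Other intermediate filament genes and their anchors went several ways. Of 12 genes, 3 had positive values throughout and 4 negative ones, against 19.7% and 23.1% of all genes, with medians of 0.17, -0.51 and -0.18. None passed over all genes, and 1 positive and 2 negative had an unadjusted p below 0.05 (7.67% and 8.43% of all genes). The muscle filament gene desma, desmin, read 1.01, 2.06 and 0.83. The neuronal filament gene inab read -0.58, -1.34 and -1.37. The gene krtcap2, which despite its keratin-derived name encodes a subunit of the oligosaccharyltransferase, read -0.93, -1.07 and -0.38. The linker gene pleca, plectin, read 0.04, -1.52 and -0.89.

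Markers of other cell types also differed between replicates. Over 10 neural genes the medians were 0.15, -1.05 and -0.13, and 9 of the 10 were lowest in replicate 2, against 37.4% of all genes. Those with the smallest p were the tubulin gene tubb5 (-0.67, -2.17 and -0.58), the synaptic gene snap25b (-1.12, -1.68 and -0.08), stmn2a (-0.39, -1.41 and -0.38) and elavl4 (0.19, -1.40 and -0.09). Of the 10, 3 were negative in all samples, none was positive in all and 7 had both signs. Over all genes, 19.7% were positive and 23.1% negative throughout. Skeletal muscle genes had medians of -0.32, -0.18 and 0.12 over 11 genes. Beside desma, the smallest p were those of the troponin gene tnnt3b (-1.77, -1.62 and -1.15), the myosin light chain gene mylpfb (-1.44, -1.5 and -0.37) and the parvalbumin gene pvalb2 (-1.04, -0.95 and 0.10). These are not typical of the 11 muscle genes. Only desma was positive in all samples, only tnnt3b and mylpfb were negative in all, and 8 had both signs. For hatching gland genes the medians were 0.63, 0.72 and -0.15 over 5 genes, and for ionocyte and mucous genes -0.62, 0.06 and 0.01 over 8 genes. In the ionocyte and mucous list, the smallest p after agr2 were those of the carbonic anhydrase ca2 (-1.09, -0.87 and 0.20), the sodium pump subunit atp1a1a.4 (0.24, 0.57 and 0.43) and the proton pump subunit atp6v1aa (-0.14, -1.27 and 0.10). No gene of these 4 lists passed over all genes. In replicate 2 the keratin, claudin, other tight junction and periderm medians were positive, as were those of endothelial, hatching gland, and wound and stress genes. The ionocyte and mucous median was also positive there, at 0.06. The neural, other filament, skeletal muscle, and desmosome and adherens junction medians were negative in replicate 2. So was the median of the epithelial transcription factor genes, at -0.06. The part of tissue makeup in the keratin and claudin ratios was not tested.

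**Figure D5:**
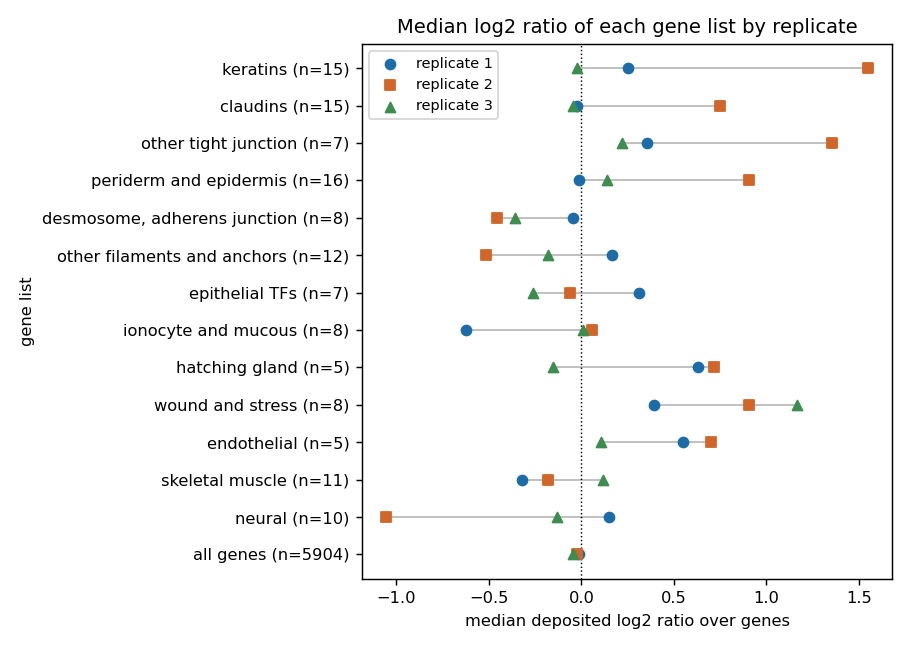
Median deposited log2 ratio (horizontal axis) of each gene list in replicates 1, 2 and 3 (symbols), with the number of genes measured in all samples. Keratins, claudins, other tight junction genes and periderm genes have their highest median in replicate 2. So do endothelial, hatching gland, and ionocyte and mucous genes. Neural genes, other filament genes, and desmosome and adherens junction genes have their lowest median there.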

How the data were processed

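The authors deposited 1 table of log2 ratios, 1 column for each of 3 samples, used as deposited. The base was taken from the range of the values; a natural logarithm was not tested, and folds assume log2. Background correction, normalization, dye-swap handling and the rule behind missing values are not given in the sources used. Rows were matched to the 21060 gene-named probes on a staggered grid of 266 by 170 spots, a numbering inferred earlier from these values. A gene's value is the mean over its measured rows in each sample.

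Genes with a value in all 3 samples were fitted with limma 3.58.1 in R 4.3.3 (lmFit, eBayes, intercept only, 2-sided against 0), with Benjamini-Hochberg adjustment over all 5904 genes and a threshold of 0.05. The variance of each gene combined its own spread (2 residual degrees of freedom) with that of all genes (4.58 prior degrees of freedom). The fit was tested on simulated data. Every measured member was named, and the 4 genes with the smallest p of each other list. Named outside that rule were tp63, itgb4, cdh17, ctnna1 and dspa. Members and lists were chosen with earlier results of these data known. All 59 members were found in the RefSeq table, 58 by gene ID and krt8 by accession. Precision is limited by the 3 samples, and array signal was not analysed here.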

Additional observations from a re-analysis of the deposited data

How the results depend on the processing

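No member passed an adjusted p of 0.05 in limma under any of the 12 settings tried, and the lowest adjusted p was 0.0584, for epcam with array weights. Scaling to equal spread and array weights called 40 genes over the array and quantile normalization 28, none of them a member. With 1 replicate left out, the keratin median ran from 0.17 to 1.04, the claudin median from -0.02 to 0.42 and their difference from 0.16 to 0.62, the lowest medians being those without replicate 2. With the row numbers taken as given, where 18 members were measured (7 keratins and 10 claudins), the keratin median was -0.37 and the difference -0.54. There epcam stood at -0.21, krt97 at -0.37, krt92 at -0.63, krt5 at 0.13, cldn23.1 at -0.25 and cldn8.2 at -0.28. That setting pairs each gene with other rows of the table, so its medians cover other values and a different set of genes. The mean of krt4 was -0.038 after scaling and -0.027 after quantile normalization, and that of cldn29 was 0.18 with the position trend removed. Leaving out 1 replicate turned the sign of 11 genes: krt4 (-0.36 to 0.60), krt15 (-0.22 to 0.98), krt17 (-0.14 to 1.07), krt222 (-0.0029 to 1.11), cldn1 (-0.26 to 0.64), cldn7b (-0.25 to 0.56), cldnb (-0.016 to 0.23), cldni (-0.10 to 0.32), cldn3d (-0.083 to 0.42), cldn29 (-0.37 to 0.36) and cldne (-0.54 to 0.37). Median centring, complete rows only, the median over rows and genes with at least 2 samples turned no sign. In settings chosen after seeing the data, the keratin median was 0.66 without krt5 and krt1-19e and 0.64 for keratins with 1 probe, and the claudin median 0.25 without cldnd1a. The cause of the other differences was not tested. No paired analysis was possible because there is 1 group, and every deposited ratio already compares exposed with control embryos.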

Other observations

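Wound and stress genes that skin also expresses were higher in median than the claudins in each replicate, at 0.39, 0.91 and 1.16 over 8 measured genes. None passed over all genes, and 3 were positive in all samples with an unadjusted limma p below 0.05, where 7.67% of all genes were positive at that p and 19.7% positive in all samples. These were the collagenase gene mmp13a (2.41, 2.11 and 1.83), the immediate early gene fosab (2.86, 0.65 and 1.76) and hbegfa (0.66, 1.36 and 1.22), which encodes a ligand of the epidermal growth factor receptor. The next smallest p was that of junba (1.17, -0.04 and 1.11). Unlike the keratin median, this median was lowest in replicate 1 and highest in replicate 3.

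Over 7 epithelial transcription factor genes the medians were 0.31, -0.06 and -0.26 in replicates 1, 2 and 3. None had 1 sign in all samples, where 19.7% of all genes were positive and 23.1% negative throughout. None of the 7 had an unadjusted limma p below 0.05, where 7.67% of all genes were positive and 8.43% negative at that p. Those with the smallest p were klf5l (0.31, -0.58 and -1.55), elf3 (-2.02, -0.06 and 0.03), tfap2a (0.07, -1.25 and -0.32) and the splicing regulator esrp1 (0.33, 0.49 and -0.05). Endothelial genes had medians of 0.55, 0.70 and 0.11 in replicates 1, 2 and 3 over 5 genes. Of these, 3 were positive in all samples, against 19.7% of all genes. The gene egfl7 (0.45, 0.84 and 0.91) had an unadjusted limma p below 0.05, against 7.67% positive at that p. Next by p were cldn5b, clec14a (0.42, 0.70 and 0.03) and cldn5a, which also counts in the claudin median above. The endothelial claudin cldn5b, outside the genes described above, read 1.38, 0.34 and 0.32. In the hatching gland list the enzymes he1.1 (2.73, 4.05 and -0.15) and he1.2 (2.34, 3.83 and -0.16) were high in replicates 1 and 2 and slightly negative in replicate 3, and agr2 and cd63 (0.63, 0.05 and 0.76) complete the 4 with the smallest p.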
